A study of Mus musculus with 6 samples.

Results

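Serglycin (Srgn) and 6 genes of cytotoxic granules, Gzma, Gzmb, Gzmk, Prf1, Nkg7 and Ctsw, were followed in RNA-seq libraries of mouse CD4 T cells with and without NLRP3, the sensor protein of an inflammasome. These 7 of the 23091 gene symbols in the deposited tables were taken by symbol, and all 7 were found. Srgn was chosen by its FPKM in the naive and day 3 libraries, where the difference between the genotypes had opposite signs, so its values in those 4 libraries describe the choice and support nothing. The other 6 were set beside it as granule cargo and partner genes.

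All mice were of the C57/Bl6j strain and 7 weeks old, and cells came from spleen and nodes. Each genotype, wild-type (WT) or NLRP3 KO (NLRP3KO), gave 1 library of naive CD4 T cells, 1 of cells after 3 days of T helper 2 (Th2) differentiation and 1 after 6 days. The Th2 cells of both genotypes received 10 ng/ml of IL-4 and an IFNgamma blocking antibody, in plates carrying CD3/CD28 coating. The labels do not say how NLRP3 was removed, in which cells, or whether animals were pooled. RNA of the 4 Th2 libraries was depleted of ribosomal RNA and that of the 2 naive libraries was purified mRNA, so the effects of differentiation and of library preparation cannot be told apart in any comparison of naive with Th2 cells. As each group is 1 library, the spread between replicates is unknown and no test was made.

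Serglycin is a small proteoglycan of blood cells whose core protein carries sulfated glycosaminoglycan chains and holds positively charged proteins in secretory granules. In cytotoxic lymphocytes those proteins are the granzymes, serine proteases that are released together with perforin, the pore-forming protein encoded by Prf1. Nkg7 encodes a membrane protein of the same granules, and Ctsw encodes cathepsin W, a cysteine protease of cytotoxic lymphocytes. Serglycin is also made by cells that hold no cytotoxic granules, naive T cells among them. Th2 cells are known for IL-4, IL-5 and IL-13.

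The depth of the libraries sets what can be seen of these genes. The totals to which the authors' software had normalised, read from whole-number steps in the deposited confidence bounds, were 4571256 fragments in naive WT and 3112343 in naive NLRP3KO, but between 129744 and 604216 in the Th2 libraries. The shallowest was NLRP3KO day 6. Its total came from only 2 such models, against 24 to 30 in the other Th2 libraries and 117 and 109 in the naive ones. Its fragment estimates and limits of detection rest on those 2. Only part of each total lay on genes, an estimated 1822733 fragments in naive WT and 1539717 in naive NLRP3KO. In the Th2 libraries 6012 to 33636 lay on genes, 4.63% to 5.98% of the totals, against 39.9% and 49.5% in naive cells. Levels are in FPKM, fragments scaled to transcript length and to the library's total. The ribosomal RNA entry Rn45s was at 10783 FPKM in naive WT and 7819 in naive NLRP3KO, and at 53218 to 67266 in the Th2 libraries. Nlrp3 itself was at 0.0569 FPKM in naive WT and at 0 elsewhere, while 3 fragments on it would have given at least 0.163, so it does not check the genotype labels. All 7 CD4 T cell markers (Cd4, Cd3d, Cd3e, Cd3g, Cd5, Lck, Thy1) were above 0 in both naive libraries and in both WT Th2 libraries, while the NLRP3KO libraries held 6 of them at day 3 and 4 at day 6.

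The start of the Srgn model is shown with that of Prf1 because both genes lie on chromosome 10, 1190 kb apart, and differ in where RNA was seen: Srgn in all 6 libraries and Prf1 in the 2 naive libraries. A level of Prf1 as in naive cells could have been missed in the Th2 libraries. Srgn has an upstream start as well. The deposited mm9 model spans 13328 bases, the same span as the GENCODE transcript that begins at the downstream start. The sequences are RefSeq windows of the 250 bases before each start site, on GRCm38.p6, and 6 of the 7 members were matched, all but Ctsw. Capitals mark matches, on either strand, to letter patterns described for transcription factor families.
Srgn, downstream start, chr10:62507758-62508007, minus strand: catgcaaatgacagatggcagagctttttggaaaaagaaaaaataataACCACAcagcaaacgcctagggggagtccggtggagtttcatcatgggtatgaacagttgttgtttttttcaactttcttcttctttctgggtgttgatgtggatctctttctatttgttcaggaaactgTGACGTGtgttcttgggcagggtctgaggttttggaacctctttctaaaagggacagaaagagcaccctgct
Srgn, upstream start, chr10:62527446-62527695, minus strand: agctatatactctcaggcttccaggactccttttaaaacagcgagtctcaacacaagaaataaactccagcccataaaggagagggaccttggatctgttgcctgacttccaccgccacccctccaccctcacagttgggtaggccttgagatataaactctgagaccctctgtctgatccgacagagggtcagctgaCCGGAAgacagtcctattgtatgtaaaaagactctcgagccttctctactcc
Prf1, chr10:61297586-61297835, plus strand: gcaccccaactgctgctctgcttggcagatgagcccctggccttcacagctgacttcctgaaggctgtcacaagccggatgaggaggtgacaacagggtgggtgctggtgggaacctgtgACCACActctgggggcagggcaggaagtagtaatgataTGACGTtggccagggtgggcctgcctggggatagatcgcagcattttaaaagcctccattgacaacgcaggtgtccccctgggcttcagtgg

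Before the downstream Srgn start the capitals are ACCACA, the reverse complement of the RUNX pattern TGTGGT, beginning at base -202, and TGACGTG, which joins TGACGT (the first letters of a cAMP response element) at -72 with the overlapping ACGTG (a hypoxia response element core) at -70. The Prf1 window has ACCACA at -130 and TGACGT at -92. The upstream Srgn window has none of these, and 1 match to the ETS pattern CCGGAA at -52. TGTGGT was found in the windows of 5 members (Srgn, Prf1, Gzma, Gzmb, Nkg7) and in 14.05% of all 32851 RefSeq windows, TGACGT in those of Srgn and Prf1 and in 6.47% of all, ACGTG in 16.6% and CCGGAA in 12.0%. The GATA pattern AGATAA, found in 9.99% of all windows, was in no member's window. The STAT pattern TTCNNNGAA was in that of Nkg7 (7.02% of all), the AP-1 pattern TGANTCA in that of Gzmb (6.75%) and the T-box pattern GGTGTGA in those of Nkg7 and Gzmk (3.33%). A match is only a run of letters, and no binding was measured here.

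Srgn (mm9, chromosome 10, 61957176 to 61970503) was among the most abundant messages of naive CD4 T cells. Its FPKM as deposited was 164 in naive WT and 161 in naive NLRP3KO, ranks 137 of 12159 and 155 of 11899 genes above 0. At day 3 it was 6.27 in WT (deposited bounds 0 to 12.4) and 58.4 in NLRP3KO (bounds 33.6 to 83.0). At day 6 it was 29.0 in WT (bounds 13.3 to 43.6) and 19.5 in NLRP3KO (bounds 0 to 41.1). The 2 naive libraries were thus alike in deposited FPKM, the day 3 libraries were far apart, and the day 6 libraries had bounds that overlapped.

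The fragments behind these values were few in the Th2 libraries. An estimated 705 fragments lay on Srgn in naive WT and 469 in naive NLRP3KO, against 4 (WT) and 26 (NLRP3KO) at day 3 and 15 (WT) and 2 (NLRP3KO) at day 6. The FPKM of 3 fragments, used here as the limit of detection, was 5.29 in the WT library of day 3 and 24.7 in the NLRP3KO library of day 6, so the first value stood just above that limit and the second below it. In both naive libraries the deposited FPKM lay above its own upper bound (155 in WT, 152 in NLRP3KO), which happened for 272 genes in naive WT and 183 in naive NLRP3KO. The midpoints of the bounds were 140 and 136.

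**Figure D1:**
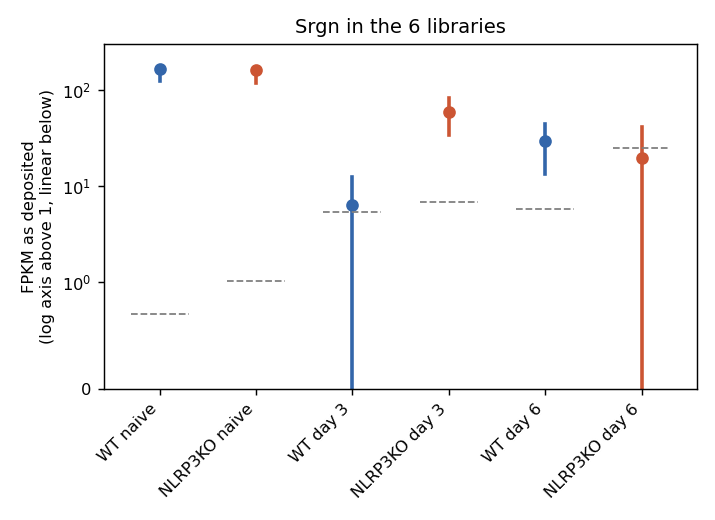
FPKM of Srgn as deposited (points) with the deposited confidence bounds (vertical lines) in the 6 libraries, on a log axis above 1 and linear below; dashed lines mark the FPKM that 3 fragments would give. The NLRP3KO day 3 value of 58.4 lies above the bounds of WT day 3, and the naive points of 164 and 161 lie just above their own bounds.

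To compare libraries, FPKM were multiplied by 1 factor per library, from the 1059 genes that reached an FPKM of 1 in all 6, and differences are log2 of scaled FPKM plus 1, NLRP3KO minus WT. Srgn was lower in naive NLRP3KO by this measure, with a log2 difference of -0.44, and higher in NLRP3KO at day 3, with a log2 difference of 2.94. The ratio of fragments after the same scaling was 0.730 in naive cells (95% exact conditional binomial interval 0.648 to 0.821) and 7.29 at day 3 (2.53 to 28.7); these intervals cover counting error only. The scaled bounds did not overlap at either stage. The naive difference was -0.03 without scaling, with overlapping bounds, so nearly all of its size rests on the scaling. The day 3 difference was 3.03 without scaling. At day 3 Srgn ranked 3 of the 947 genes that were above 0 in both libraries with an FPKM of at least 5 in 1 of them.

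Day 6 was not used to pick Srgn. The log2 difference there was -0.72, on the side of the naive value and opposite to day 3, with a ratio of 0.513 (0.0569 to 2.21). It was -1.58 with upper quartile scaling and -0.20 with scaling by fragments on genes. That interval holds both a lower and a higher level in NLRP3KO, so no difference between the genotypes was detectable at this depth. From day 3 to day 6 Srgn differed by 1.98 in WT (ratio 3.65, 1.16 to 15.1) and by -1.68 in NLRP3KO (0.257, 0.0296 to 1.03). Scaled bounds overlapped in both. The day 6 comparisons share the day 3 libraries that picked the gene.

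From naive to day 3, Srgn differed by -2.01 in WT (ratio 0.264, 0.0717 to 0.678) and by 1.38 in NLRP3KO (2.63, 1.70 to 3.91). The NLRP3KO value turned to -1.45, and the WT value to -4.51, when FPKM were used as deposited: the factors of the naive libraries (0.328 and 0.245) and of the day 3 libraries (2.02 and 1.78) then play no part. The direction in NLRP3KO between these stages therefore depends on the scaling, and the library preparation differs between them.

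The 6 cargo and partner genes were seen almost only in the naive libraries, and at much lower levels than Srgn. Their FPKM added up to 33.8% of that of Srgn in naive WT and 46.5% in naive NLRP3KO. Ctsw had the highest level of the 6 and Nkg7 came next in both naive libraries. In the 4 Th2 libraries all 6 were listed at 0, except for Gzma in NLRP3KO day 3. Zeros were common there. Of all genes kept between naive and day 3, 36.4% in WT and 41.6% in NLRP3KO were listed at 0 in 1 of the 2 libraries.

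Ctsw (chromosome 19, 5465240 to 5468498) stood at an FPKM of 22.6 in naive WT (bounds 16.3 to 26.1) and 50.9 in naive NLRP3KO (37.8 to 56.1). It was the cargo gene that was higher in naive NLRP3KO with bounds apart, by 0.68 on the log2 scale (196 and 128 fragments, ratio 1.68, 1.34 to 2.12), and by 1.14 as deposited. Its rank was 80 of 6758 genes from the top. The gene entry before it, Fibp, ends 0.188 kb away and had a log2 difference of 0.12, with FPKM of 17.6 and 26.0.

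Gzma (chromosome 13, 113884035 to 113891189), which encodes granzyme A, stood at 8.41 FPKM in naive WT (bounds 4.73 to 11.7) and 1.38 in naive NLRP3KO (0 to 2.56). The log2 difference was -1.49, from an estimated 34 fragments against 4 (ratio 0.129, 0.0333 to 0.362), with bounds apart. At day 3 the FPKM was 2.87 in NLRP3KO and listed at 0 in WT. That value is 1 fragment, below the 7.19 that 3 fragments would give, so the change of sign that Gzma shares with Srgn is not resolved. Gzmk, its neighbour at 70.9 kb (113962082 to 113971105), was listed at 0 in naive WT and at an FPKM of 1.05 in naive NLRP3KO, from 3 fragments. The next entry beyond Gzma, Gpx8, was listed at 0 in all 6 libraries.

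Nkg7 (chromosome 7, 50692508 to 50693616) stood at 18.4 FPKM in naive WT (bounds 11.3 to 21.8) and 11.7 in naive NLRP3KO (5.93 to 16.6). The log2 difference was -0.86, with overlapping bounds and a fragment ratio of 0.474 (0.303 to 0.727). Prf1 (chromosome 10, 60760584 to 60767011) had 5.71 (4.05 to 7.35) and 8.92 (6.26 to 11.6), a log2 difference of 0.15 with overlapping bounds and a ratio of 1.16 (0.818 to 1.66). Gzmb (chromosome 14, 56877695 to 56881097), which encodes granzyme B, had 0.529 and 0.780, each from 3 fragments. The naive genotype differences of the granule genes thus had both signs, with Gzma and Nkg7 lower and Ctsw higher in NLRP3KO.

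**Figure D2:**
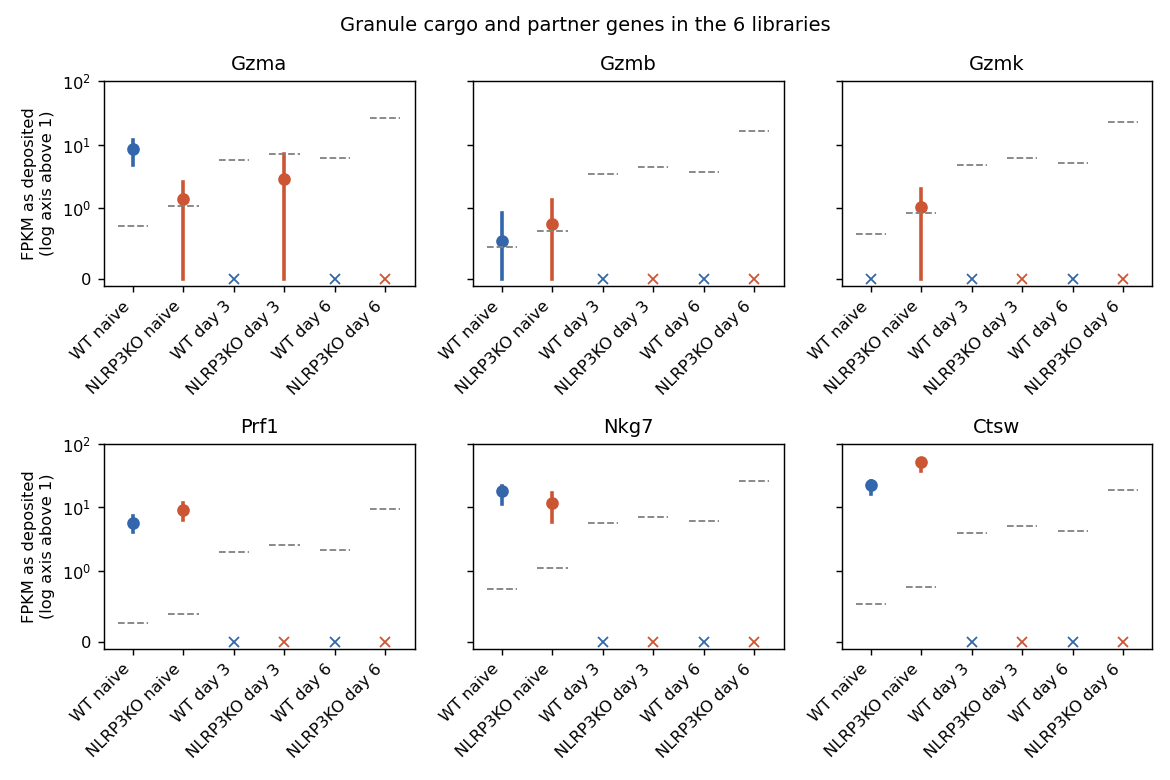
FPKM as deposited (points, crosses for genes listed at 0) with deposited bounds (vertical lines) for the 6 cargo and partner genes, on a log axis above 1; dashed lines mark the FPKM of 3 fragments. Gzma was 8.41 in naive WT and 1.38 in naive NLRP3KO, Ctsw was 22.6 and 50.9, and in the Th2 libraries the detection limits stand at or above 2.01.

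Gene by gene, the zeros of the Th2 libraries allow few comparisons with naive cells. After scaling, the naive level of each cargo gene was below the scaled level of 3 fragments at day 3 and day 6 in the same genotype, with 1 exception. Ctsw in NLRP3KO stood at 12.5 in naive cells against 9.04 for 3 fragments at day 3, where it was listed at 0 (interval of the fragment ratio 0 to 0.903). In WT the naive level of Ctsw was 7.41 and the day 3 limit 8.06. For Gzma, Gzmb, Gzmk, Prf1 and Nkg7 a level as in naive cells could have been missed. With the 6 genes pooled, WT held 0 estimated fragments at day 3 and 304 in naive cells, a ratio of their shares of all fragments on genes of 0 (interval 0 to 0.689), and NLRP3KO held 1 and 308, a ratio of 0.181 (0.00457 to 1.02). With counting error alone considered, the pooled share was thus below its naive level in WT, between libraries of different preparation. Genes listed at 0 entered as 0 fragments, though such a value can be a failed estimate. Among the lists described below, WT shares were also lower for granule transport (0.512, 0.298 to 0.822), granule proteases (0.333, 0.194 to 0.534) and cytotoxic regulators (0.252, 0.138 to 0.424). Intervals of the other lists held 1. Nothing is read as particular to the members. In NLRP3KO the interval of the 6 genes just reached 1 by this measure. Shares of fragments on genes put log2 ratios of day 3 to naive above those of the scaling used elsewhere, by 0.28 in WT and 0.23 in NLRP3KO. Whether the NLRP3KO interval holds 1 therefore depends on that choice.

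Of the 7 genes, 6 passed the filter in naive cells (an FPKM of at least 1 in 1 of the 2 libraries). There 0 were at least 2-fold higher in NLRP3KO, against 0.21% of all 9985 genes kept, and 1 (Gzma) was at least 2-fold lower, against 2.32%. Bounds did not overlap for 3 (Srgn, Gzma, Ctsw), against 14.9% of all genes kept. At day 3, 2 passed, and both (Srgn, and Gzma from 1 fragment) were at least 2-fold higher, against 25.4% of 5749 genes, while 27.2% were lower; with both libraries above 0 and bounds apart as well it was Srgn alone, against 0.818%. At day 6 Srgn alone passed and was not 2-fold apart, against 20.9% of 5336 genes higher and 53.8% lower. Naive cells and day 3 are the contrasts that picked Srgn, so nothing is read from their counts.

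**Figure D3:**
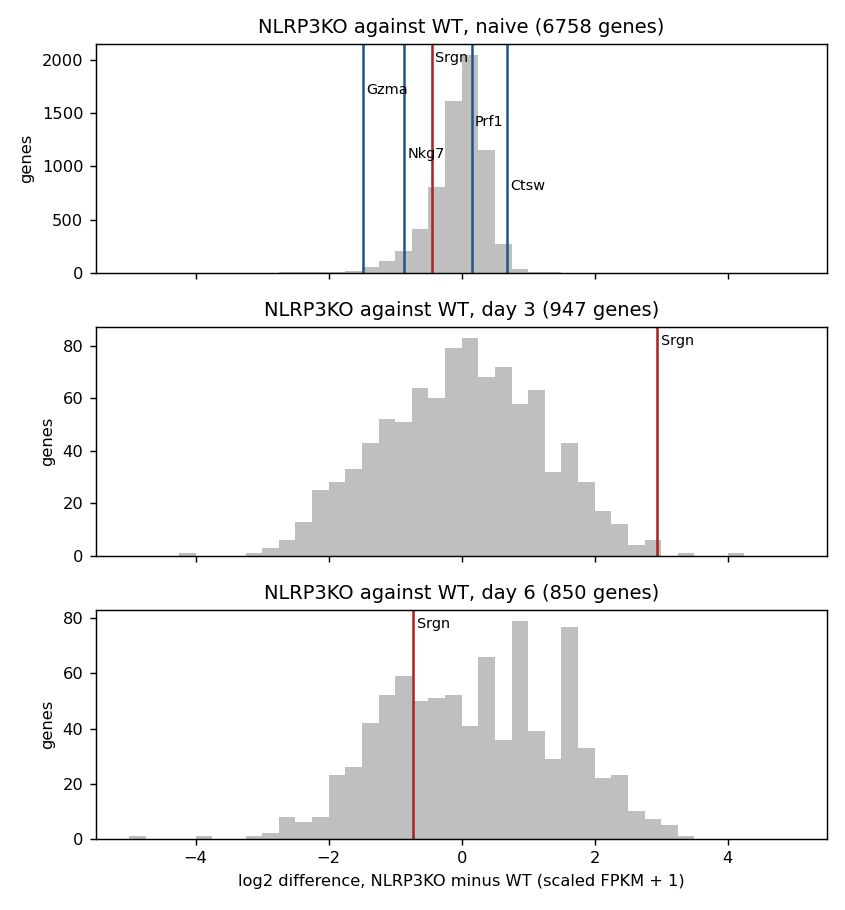
Histograms of the log2 difference of scaled FPKM plus 1, NLRP3KO minus WT, over genes above 0 in both libraries with an FPKM of at least 5 in 1 of them; lines mark the members that were above 0 in both and had an FPKM of at least 1 in 1. Srgn stands at -0.44 in naive cells, 2.94 at day 3 and -0.72 at day 6, while the spread of all genes is far narrower in the naive panel than in the Th2 panels.

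Markers of other lymphocytes that hold granules were measured in the same naive libraries. Of 10 natural killer cell markers, 8 were above 0 in each, with a summed FPKM of 34.2 in WT and 21.8 in NLRP3KO; Tyrobp was 10.7 and 2.50, Klrd1 17.1 and 13.1 and, the other way, Fcer1g 2.27 and 4.04, while Klra4 was at 0 in both, Ncr1 in WT and Klra8 in NLRP3KO. Both CD8 T cell markers were above 0, with sums of 16.1 and 15.7, nearly all of it Cd8b1. B cell markers summed to 81.8 and 36.9 (6 of 6 above 0), macrophage markers to 14.6 and 19.5 (6 and 4 of 6), mast cell and basophil markers to 0.974 and 3.05 (3 and 4 of 8) and platelet markers to 0.680 and 2.30 (2 and 3 of 5). Neutrophil markers summed to 59.1 and 70.6 (7 of 7), or 19.4 and 17.3 after scaling, which turns their order. S100a8 was 29.8 and 18.1 and S100a9 21.7 and 27.6, and the granule genes of neutrophil precursors were Elane 1.18 and 5.21, Mpo 1.85 and 5.84, Prtn3 1.10 and 4.48, Ctsg 1.06 and 3.13. Erythroid markers summed to 833 and 397 (5 of 5), with globin copies that share reads. In the Th2 libraries these markers were at 0 except Cd79b in WT day 3 (1.57) and Emr1 in NLRP3KO day 3 (0.679). After the same scaling the sum over the natural killer list was 11.2 and 5.34, lower in NLRP3KO as Gzma and Nkg7 were. Ctsw and Prf1 were not lower. Tyrobp had the largest FPKM difference of that list, and not every gene of the list is limited to natural killer cells. The part of such cells in the naive differences was not tested, and in bulk RNA fewer cells of a type and less RNA per cell cannot be told apart.

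The genes around Srgn did not all differ as it did at day 3. Vps26a, whose product sorts endosomal proteins, ends 7.62 kb before Srgn and was listed at 0 in WT and at 1.46 in NLRP3KO. Supv3l1, a helicase gene on the same side, was at 0 and 0.937. Hk1, the gene of hexokinase 1, also on that side, had 2.09 in WT and 7.87 in NLRP3KO, a log2 difference of 1.52. The other side held both directions. There 2510003E04Rik was at 0 in WT and 1.81 in NLRP3KO. The RNA helicase genes Ddx21 and Ddx50 were lower in NLRP3KO, with 6.12 and 4.12 (-0.68) and 4.91 and 1.78 (-1.39). In naive cells the log2 differences of these 6 genes lay between -0.23 and 0.49.

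**Figure D4:**
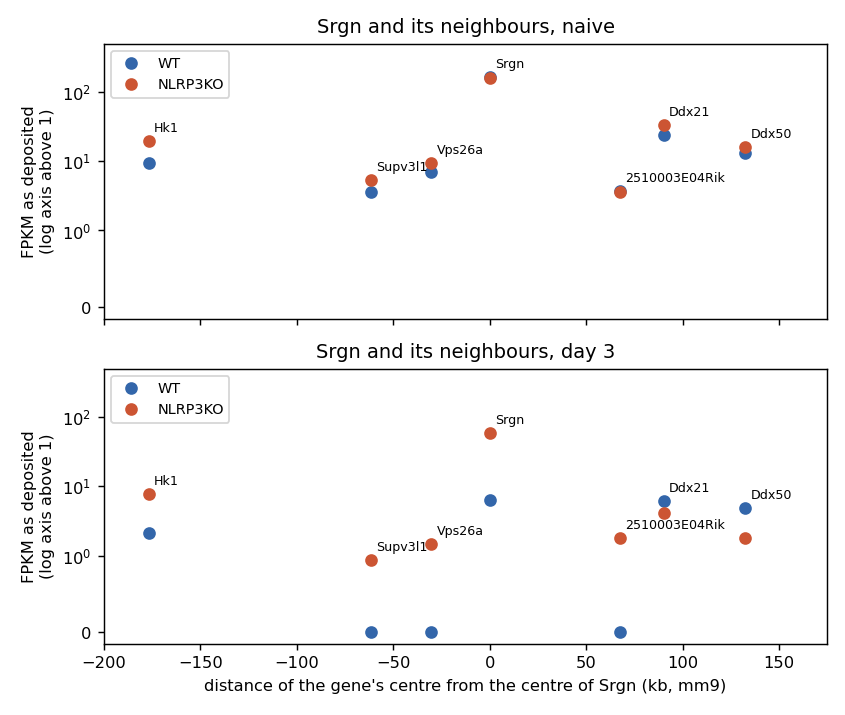
FPKM as deposited (log axis above 1) of Srgn and the 3 nearest genes on each side with an FPKM of at least 1 in any library, against the distance of their centres from that of Srgn in kb, in naive cells (top) and at day 3 (bottom). At day 3 Srgn is 6.27 in WT and 58.4 in NLRP3KO. Ddx21 and Ddx50, to its right, are higher in WT, while 2510003E04Rik, also to its right, is higher in NLRP3KO.

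The genes whose values followed those of Srgn most closely over the 6 libraries were taken by Pearson correlation of log2 scaled FPKM plus 1, among 3752 genes. They were Dars (r = 0.985), the gene of aspartyl-tRNA synthetase, Plekha2 (0.975), Setd5 (0.952), Golgb1 (0.947), the gene of the Golgi protein giantin, and Ubxn7 (0.945). The 6 points share library and depth, and the correlation is a description. In WT day 3 these 5 genes stood between 0.163 and 0.793 FPKM, where 3 fragments on Srgn would have given 5.29. Their low WT day 3 values may therefore rest on very few fragments. Dars had FPKM of 26.1, 35.1, 0.793, 10.1, 5.10 and 3.70 (naive, day 3 and day 6, WT before NLRP3KO each time), so it had the low WT day 3 and high NLRP3KO day 3 values of Srgn without a lower naive value (0.01). By Euclidean distance of centred values 3 of these 5 stayed among the nearest 5.

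Of 5403 genes kept in both naive and day 3 comparisons, 66 were as low or lower than Srgn in naive NLRP3KO and as high or higher at day 3. Srgn was the 1 among them with values above 0 in both day 3 libraries. The others were listed at 0 in WT day 3, where a fold cannot be given. These counts use the contrasts that picked Srgn and are given for scale.

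The other granzymes, Gzmc, Gzmd, Gzme, Gzmf, Gzmg, Gzmm and Gzmn, were at or below 1.84 FPKM wherever they were listed above 0. In the Th2 libraries 3 fragments on Gzmm would have given at least 3.86, so low levels could not be seen there. Gzmc was at 1.15 FPKM in naive WT and 0.426 in naive NLRP3KO, Gzmm 0.591 and 0.291, and the other 5 were listed at 0 in all 6 libraries. Gzmm was also at 1.84 in NLRP3KO day 3, from 1 fragment. That made it the 1 kept gene and 1 of 1 at least 2-fold higher there, against 25.4% of all genes kept. Gzmb and Gzmc lie 24.2 kb apart and have related sequences, so their small values are uncertain.

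In the lists that follow, counts of genes at least 2-fold apart stand against 25.4% higher and 27.2% lower of all genes kept at day 3, with a median log2 difference of 0.11, and 20.9% and 53.8% at day 6, with a median of -1.52. In naive cells 0.21% of all genes kept were at least 2-fold higher, 2.32% at least 2-fold lower and 14.9% had bounds apart. Nothing is called particular to any list.

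Genes that move and release granules were present in naive cells of both genotypes. Of 14, 12 were kept there, with 0 at least 2-fold apart and a median log2 difference of -0.06 (0.01 over all genes kept); Vamp8, a fusion protein, was 52.7 and 39.0 (-0.79) and Unc13d, the priming factor Munc13-4, 13.7 and 25.5 (0.40), both with bounds apart. At day 3, NLRP3KO was at least 2-fold higher for 4 of 9 kept and lower for 1 (25.4% and 27.2% of all genes), with a median of 0.99 (0.11 over all) and 4 of the 9 at 0 in 1 library: Vamp8 0 and 6.57, Stx11 0 and 4.21, Sytl1 0 and 3.55 and Lyst 0.426 and 1.62 were the higher ones, and Ap3b1 (1.28 and 0) the lower. None had bounds apart. At day 6, 2 of 9 were higher, Lamp2 (0 and 2.23) and Lamp1 (0.841 and 3.66), and 3 lower, with a median of -0.04 (-1.52 over all).

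Granule proteases and their inhibitors other than the members gave 0 of 15 kept genes at least 2-fold apart in naive cells, with a median of -0.01. At day 3, 3 of 6 were higher in NLRP3KO, Ctsd (0.915 and 5.82), Ctsb (0.360 and 2.29) and Ctsz (2.65 and 6.74), and 1 lower, the protease inhibitor gene Cst3 (5.56 and 0), with a median of 0.95, against 25.4% and 27.2% of all genes. At day 6, 2 of 8 were higher and 6 lower (20.9% and 53.8% of all genes), with a median of -1.70 and 7 of the 8 at 0 in 1 library; Ctss (0 and 6.38) and Ctsd (0.980 and 8.53) were the higher ones and Cst7, which encodes cystatin F (8.41 and 0), the lowest. Cst7 was present in 5 libraries, between 7.88 and 14.4.

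The enzymes that build glycosaminoglycan chains on a core such as serglycin had 23 of 28 genes kept in naive cells, with 0 at least 2-fold apart and a median of 0.16. B4galt7, which adds a sugar of the linker, was 4.01 and 11.8 (0.75), and the chondroitin sulfotransferase gene Chst12 6.79 and 4.40 (-0.64). Both were among the 8 of 23 kept genes with bounds apart, against 14.9% of all genes kept. At day 3, 5 of 11 were higher in NLRP3KO and 0 lower (25.4% and 27.2% of all genes), with a median of 0.97 (0.11 over all) and 3 of the 11 at 0 in 1 library: Chst12 (0 and 2.56), Ext2 (0 and 2.32), Chst11 (0 and 1.57) and Ugdh (0.721 and 4.58) had the largest differences. At day 6, 1 of 10 was higher and 7 lower, with a median of -1.72; Uxs1 was 4.75 and 0 and Ext1 2.68 and 0.

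Among serglycin's partners and other proteoglycan cores, Cd44, a receptor that binds serglycin chains, had 10.4 and 14.6 in naive cells and 1.17 and 1.48 at day 3. Cd74, the invariant chain, was 114 and 68.4 in naive cells, a log2 difference of -1.11. It was the 1 of 6 kept genes at least 2-fold lower (2.32% of all genes), beside the B cell marker sums above. At day 3, 1 of 4 was higher, the syndecan gene Sdc1 (0 and 1.45), with a median of 0.46, and at day 6, 1 of 2 was higher (Sdc4, 0 and 3.33) and 1 lower (Cd74, 14.8 and 7.17), with a median of 0.76.

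Of the regulators of the cytotoxic programme, 11 of 12 were kept in naive cells, with 0 at least 2-fold apart and a median of -0.04. Tbx21 and Eomes, the genes of T-bet and eomesodermin, were low (0.829 and 1.49; 1.92 and 1.39), and at day 3 both were listed at 0. At day 3, 2 of 4 were higher in NLRP3KO (25.4% of all genes), with a median of 0.86 (0.11 over all): Id2, an inhibitor of E proteins, was 1.47 in WT and 24.3 in NLRP3KO (3.48, bounds apart), and Bhlhe40 was 2.79 and 10.6 (1.59). Id2 had 27.3 and 28.5 in naive cells and 11.0 and 20.6 at day 6. At day 6, 1 of 3 was higher, Tcf7 (1.71 and 7.42), with a median of 0.70.

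Secreted effectors and death ligands were sparse. Ccl5, a chemokine stored in cytotoxic cells, was 53.6 and 44.9 in naive cells and listed at 0 in all Th2 libraries, as was Xcl1 (8.05 and 6.98 in naive cells). In WT day 3, 3 fragments would have given 9.33 FPKM on Ccl5 and 9.49 on Xcl1. After scaling, levels as in naive cells could have been missed for both. Of the effectors, 0 of 6 kept were at least 2-fold apart in naive cells (median -0.05), at day 3, 1 of 4 was higher (Csf2, 0 and 2.37) and 2 lower (Tnf, 2.25 and 0; Il2, 2.08 and 0), with a median of -1.26, and at day 6, 2 of 2 were lower (Lta, 7.16 and 0; Tnf, 2.41 and 0), with a median of -3.12. Of 4 death ligands and receptors, 0 of 4 were apart in naive cells (median 0.11), 1 of 2 was higher at day 3 (Fas, 0 and 1.57; median 0.70), and at day 6, 2 of 3 were higher (Fas, 0 and 5.76; Tnfrsf10b, 0 and 2.54) and 1 lower (Tnfsf10, 1.11 and 0), with a median of 2.36. Of all genes kept, 34.4% at day 3 and 59.2% at day 6 were listed at 0 in 1 of the 2 libraries, and most Th2 values of these lists rest on few fragments.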

How the data were processed

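Each library has 1 table of gene models with FPKM and a lower and upper confidence bound in the same unit, as the authors deposited them, per the file headers. Per the submitters' processing notes, TopHat and Cufflinks were used with mm9; tool versions and annotation were not given in the sources used here. Of 23700 entries 285 marked as having too little data were left out. Count tests do not suit FPKM and none was run. FPKM were scaled by median ratios, and a pseudocount of 1 was added before log2, which understates differences of low genes; bounds were scaled the same way. Fragments were estimated from whole-number steps of the bounds (relative tolerance 2e-05) and transcript lengths (GENCODE M21 where the bounds gave none), are inferences, and their intervals and floors of 3 fragments cover counting error only, as PCR copies (12 cycles) were not marked. A value listed at 0 can be a failed estimate, so no size of a fold is read from it. With the pseudocount such values still entered the counts of genes at least 2-fold apart and the medians. Deposited starts were read as counted from 0 and raised by 1, since spans then equalled the RefSeq span for 8786 of 20769 entries and otherwise for 543; the rest matched neither way, so starts may be off by 1. The scaling and the 2-fold calls were tried on data simulated from naive WT genes with an FPKM of at least 5. The reading of steps was tried on simulated bounds built by the rule it assumes. These trials do not show how well values from few fragments hold, and totals and transcript lengths were not tried. The members, lists and rules were chosen with earlier results of these data known. Named genes were the members, their nearest entries, the 5 genes most like Srgn and up to 4 list members at least 2-fold apart per genotype comparison, largest first; Id2 and others at day 6, list genes not 2-fold apart and single markers were named after their values were seen. Python 3.11.15, pandas 2.3.3, scipy 1.17.1 and matplotlib 3.10.9 were used.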

Additional observations from a re-analysis of the deposited data

Results flagged for a closer look

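The genotype difference of Srgn was 3.39 log2 units higher at day 3 than in naive cells, with opposite signs at the 2 stages. That contrast picked Srgn, and the naive difference was only -0.03 without scaling. From day 3 to day 6 the genotype difference moved by -3.67, again with opposite signs. Each stage has 1 library per genotype, so neither change was tested. Both rest on the estimated 4 fragments of WT day 3. The second also rests on the 2 of NLRP3KO day 6, below the limit of detection. No genotype difference was detectable at day 6, so the sign there is not resolved.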

How the results depend on the processing

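With FPKM as deposited the naive genotype difference of Srgn was -0.032 instead of -0.44, the difference of day 3 from naive was -4.51 instead of -2.01 in WT, and that in NLRP3KO was -1.45 instead of 1.38, a reversal; leaving out the factors shifts the log2 ratio of every gene above 0 in both libraries, before the pseudocount, by 0.42 in the naive genotype comparison, 0.18 at day 3 and 0.17 at day 6, and by -2.62 (WT) and -2.86 (NLRP3KO) from naive to day 3. The day 3 genotype difference of Srgn kept its sign under every alternative run, between 2.71 and 3.04, and the day 6 difference of -0.72 lay between -1.58 (upper quartile scaling) and -0.20 (scaling by fragments on genes). The count of genes at least 2-fold apart in naive cells, 253 (21 higher, 232 lower), was 669 (474 higher, 195 lower) as deposited, 553 (125 and 428) with the median ratio of the 2 libraries and 801 (265 and 536) with a pseudocount of 0.1. At day 3 the count of 3024 became 588 with an FPKM of at least 5 and 79 when genes had to be above 0 in both libraries and have bounds apart, and at day 6 that of 3982 became 953 and 40. The last rule makes both demands at once, and it leaves out the 34.4% (day 3) and 59.2% (day 6) of genes listed at 0 in 1 library. No paired analysis was possible because, within a stage, each genotype has 1 library and no replicate number, and for the same reason no replicate could be left out; the genotypes could be paired across the 3 stages, which was not done here, as 2 of the stages chose Srgn. Depth limits every Th2 value, most of all in NLRP3KO day 6.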
